A study of Homo sapiens with 6 samples.

Results

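Catecholamines are built from tyrosine in a short chain of enzymes. TH adds a hydroxyl group to make L-DOPA and sets the pace of the chain, DDC removes a carboxyl group to give dopamine, DBH turns dopamine into noradrenaline inside vesicles, and PNMT turns noradrenaline into adrenaline. The vesicular carriers SLC18A1 and SLC18A2 load amines into granules and synaptic vesicles, SLC6A3 takes released dopamine back across the plasma membrane, and the outer mitochondrial membrane oxidases MAOA and MAOB break the amines down. These 9 genes were chosen by their roles in the pathway, not by a cut on measured values, although earlier results of these data were known. All of them were measured, each by 1 probe set, among 17687 genes.

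The study used SH-SY5Y, an established human neuroblastoma line of sympathetic lineage that becomes neuron-like under retinoic acid. All samples were differentiated with atRA over 96 h. The groups, 15EN and vehicle control (VC), had 3 samples each, 1 per passage (33, 34 and 35 in titles and source names, although every description names passage 33). The treatment text, which is the same for both groups, gives a bioactive compound at 15 μM. The series title names eurycomanone from Eurycoma longifolia and concerns dopamine secretion and GABA signalling, and the labels expand neither 15EN nor the vehicle. Whole-transcript Affymetrix arrays were hybridized with biotinylated cDNA from 100 ng of total RNA. Apart from the passage, no label states that replicates were grown independently. The p-values therefore reflect array-to-array spread, part of which may be technical. One line was used, and arrays report RNA, not amines, so nothing here measures dopamine itself.

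Values are the deposited log2 signals. Replicates 1 and 2 of 15EN correlated at 0.991 over the genes, and replicate 3 correlated with them at 0.978 and 0.980, so 15EN replicate 3 stood apart, and results are given without it where that matters. The VC arrays correlated at 0.991 to 0.993. With them, 15EN replicate 3 correlated at 0.969 to 0.971, and 15EN replicates 1 and 2 at 0.960 to 0.963. Replicate 3 was thus the 15EN array nearest to VC over the genes. There are no detection calls. Each array instead carries 612 negative control probe sets, whose 90th percentile was 7.41 to 7.51 in 15EN and 7.55 to 7.99 in VC, with medians of 4.75 to 4.86 in 15EN and 4.97 to 5.06 in VC. A gene under that 90th percentile is called dim here, which does not mean unexpressed, since 47.5% to 53.0% of all genes were dim on an array. Background probe sets graded by GC content ran from 2.85 to 9.50 over the arrays, so a distance from the negative controls also holds an unknown part from base composition.

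Of 18 markers of sympathetic neuroblastoma cells, 16 were measured here and 10 of these lay above the 90th percentile of the negative controls on every array, among them PHOX2A, ISL1, GATA3 and HAND2. TH, the granule protein gene CHGA and MYCN were dim on all 6 arrays, so TH itself did not mark the line on these arrays. Of 8 measured Schwann cell and glial markers, 7 were dim on every array, as were 7780 of all 17687 genes. Of 13 measured markers of substrate-adherent neuroblastoma cells, 7 lay above the 90th percentile on every array, as did 5 of 9 fibroblast markers. Bright markers were thus not confined to the sympathetic list.

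The promoter windows below are shown for the genes whose values the results turn on, DDC and DBH, which fell, and MAOA and MAOB, a pair of neighbouring oxidase genes on the X chromosome of which MAOA was bright on every array and MAOB dim on every array. Each is a RefSeq window of 300 bases on GRCh38.p14 (250 before and 50 after an annotated transcription start), read 5′ to 3′ on the gene's strand. The second DDC window and the MAOA window lie inside the annotated span of their gene. Capitals mark matches to any of 10 motifs searched on both strands.
DDC, first start, chr7:50565356-50565655, minus strand: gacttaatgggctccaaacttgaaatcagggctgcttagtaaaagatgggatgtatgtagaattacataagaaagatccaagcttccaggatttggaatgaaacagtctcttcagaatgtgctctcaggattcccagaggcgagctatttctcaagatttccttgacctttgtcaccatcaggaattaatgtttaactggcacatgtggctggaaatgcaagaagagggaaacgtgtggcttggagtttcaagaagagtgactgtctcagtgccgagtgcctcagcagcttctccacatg
DDC, second start, chr7:50561022-50561321, minus strand: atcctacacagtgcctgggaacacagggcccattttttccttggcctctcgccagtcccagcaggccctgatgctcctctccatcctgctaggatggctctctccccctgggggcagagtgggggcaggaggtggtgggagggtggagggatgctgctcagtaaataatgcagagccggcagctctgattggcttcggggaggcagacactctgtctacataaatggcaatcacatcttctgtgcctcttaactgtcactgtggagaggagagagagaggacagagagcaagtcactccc
DBH, chr9:133636113-133636412, plus strand: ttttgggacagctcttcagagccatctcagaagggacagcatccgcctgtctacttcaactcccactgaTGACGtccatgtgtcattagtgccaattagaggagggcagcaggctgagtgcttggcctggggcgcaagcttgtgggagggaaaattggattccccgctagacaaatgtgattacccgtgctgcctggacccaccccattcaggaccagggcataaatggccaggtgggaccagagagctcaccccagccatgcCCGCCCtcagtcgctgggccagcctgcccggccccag
MAOA, chrX:43656049-43656348, plus strand: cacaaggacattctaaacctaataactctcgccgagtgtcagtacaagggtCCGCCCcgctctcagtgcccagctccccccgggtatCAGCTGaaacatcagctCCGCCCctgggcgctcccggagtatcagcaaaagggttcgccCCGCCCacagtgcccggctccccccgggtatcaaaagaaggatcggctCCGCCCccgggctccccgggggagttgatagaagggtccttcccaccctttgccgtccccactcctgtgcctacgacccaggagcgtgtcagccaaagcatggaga
MAOB, chrX:43882401-43882700, minus strand: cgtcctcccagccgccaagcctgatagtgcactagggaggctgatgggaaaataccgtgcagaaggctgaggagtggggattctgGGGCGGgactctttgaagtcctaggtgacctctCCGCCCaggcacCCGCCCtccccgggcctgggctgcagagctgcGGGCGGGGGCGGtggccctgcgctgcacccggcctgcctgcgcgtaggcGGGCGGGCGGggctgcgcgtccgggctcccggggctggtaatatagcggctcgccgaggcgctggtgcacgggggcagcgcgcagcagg

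The motifs searched for began with the cAMP response element (CRE), spelled TGACGTCA, and its shorter core, spelled TGACG. Sites named for the AP-1 family were searched as TGANTCA and those named for the zinc finger family of GATA factors as AGATAA. For homeodomain factors the search used a longer paired core, held by 0.365% of windows, and a single core spelled TAATTA. One kind of E-box was spelled CAGCTG and the other kind was spelled CACGTG. The promoter element known as the TATA box was searched as TATAAA, and the element known as the GC box was searched as GGGCGG. CRE matches contain the core, and GC boxes can overlap each other. Neither DDC window held any of the 10. The DBH window held 1 CRE core starting 181 bases before the start, a motif found in 24.6% of all 35116 windows, and 1 GC box 14 bases into the transcript. The MAOA window held 4 GC boxes and 1 CAGCTG, and the MAOB window held 7 GC boxes. A GC box occurs in 45% of all windows and CAGCTG in 17.9%. Among the members, 5 of 9 had windows in the sequence table (TH, PNMT, SLC18A1 and SLC6A3 had none), and SLC18A2 had the single full CRE, starting 48 bases before its start, which 1.85% of windows hold. These matches are letters in a window and not binding sites.

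The comparison of 15EN with VC asks whether transcripts of dopamine handling differ with the compound. DDC and DBH, the dopamine-forming and the noradrenaline-forming enzyme, were lower in 15EN, and TH, the first enzyme, differed by less than its error. No member was higher at the threshold as deposited. PNMT, the adrenaline-forming enzyme, was higher on all 3 arrays of 15EN but missed the threshold. MAOA was the one member above the 90th percentile of the negative controls on all 6 arrays, and 6 of the 9 were under it on all 6. By limma with Benjamini-Hochberg adjustment over all genes and a threshold of 0.05, 2 members were lower and 0 higher, against 9.09% of all genes lower and 12.3% higher (21.4% in either direction). At an unadjusted p under 0.05 there were 3 of the 9 members, close to the share of all genes (32.2%). The median log2 difference was -0.24 over the members and 0.01 over all genes. Among the 7780 genes dim on all 6 arrays, 4.33% passed, 2.34% as lower, and none of the 6 members at such levels passed.

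**Figure D1:**
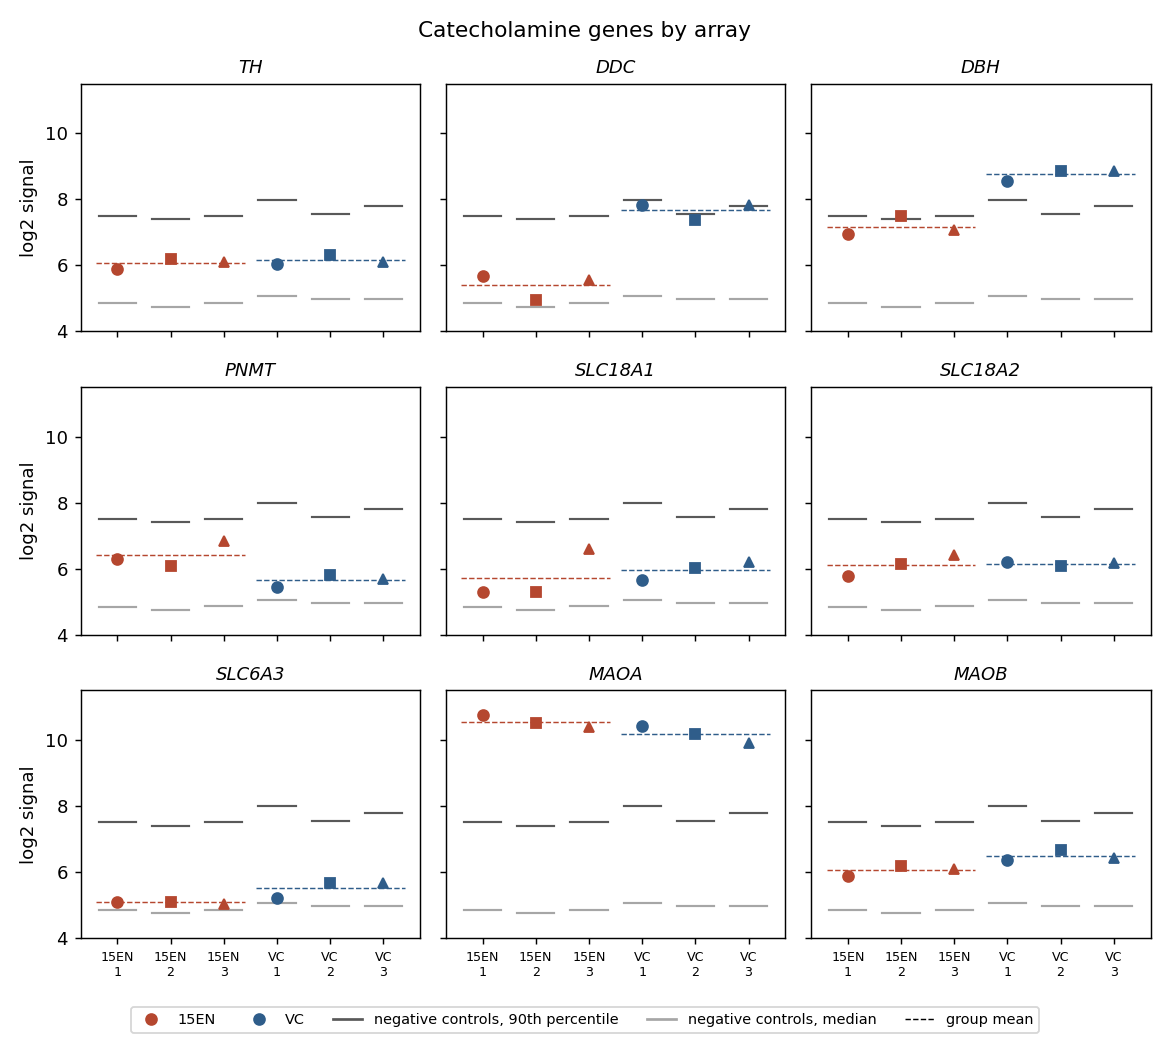
Log2 signal of the 9 catecholamine genes on each array (15EN replicates 1 to 3 in red, VC replicates 1 to 3 in blue, circles, squares and triangles for replicates 1, 2 and 3), with group means dashed and the median and 90th percentile of each array's negative controls as grey bars. DDC and DBH are lower in all 3 15EN arrays than in any VC array, and MAOA alone lies above the 90th percentile on every array.

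Synthesis comes first. TH, on chromosome 11, had 5.89, 6.18 and 6.11 in 15EN replicates 1, 2 and 3, against 6.05, 6.31 and 6.10 in VC. The groups overlapped and the same-numbered differences were -0.16, -0.12 and 0.002. The log2 difference was -0.09 ± 0.21 (SE; 95% interval -0.55 to 0.36; adjusted p = 0.818), so a fall as large as that of DBH lies outside the interval. TH was dim on every array, at percentiles 70.9 to 78.1 of the negative controls in 15EN and 69.3 to 74.3 in VC. At such levels an array can miss a change, so the interval holds for the signal and may not hold for the transcript.

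DDC, which makes dopamine and also serotonin, lies on the minus strand of chromosome 7 (50458442 to 50565405, GRCh38.p14). It had 5.68, 4.95 and 5.56 in 15EN, against 7.84, 7.39 and 7.83 in VC. The groups did not overlap, and the lowest VC value was above the highest 15EN value. The means were 5.39 ± 0.39 in 15EN and 7.69 ± 0.26 in VC (SD, n = 3 each), a log2 difference of -2.29 ± 0.26 (95% interval -2.86 to -1.72; adjusted p = 0.000359, limma). The same-numbered differences were -2.16, -2.44 and -2.27. Of all genes, 0.77% had a larger fall. Position against the negative controls changed with it. DDC stood at percentiles 56.4 to 68.0 in 15EN and 87.9 to 90 in VC, where VC replicate 3 alone passed the 90th percentile, by 0.03. The size of the fall is therefore uncertain, since 15EN values lay 0.19 to 0.82 above the negative control median.

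DBH, the copper enzyme that works inside the vesicle, lies on chromosome 9 (133636363 to 133659329). It had 6.96, 7.49 and 7.07 in 15EN, against 8.56, 8.86 and 8.86 in VC. Every 15EN array was lower than every VC array. The means were 7.17 ± 0.28 in 15EN and 8.76 ± 0.18 in VC (SD, n = 3 each), a log2 difference of -1.59 ± 0.23 (95% interval -2.09 to -1.09; adjusted p = 0.00112, limma). The same-numbered differences were -1.60, -1.37 and -1.79, and 2.49% of all genes had a larger fall. In VC it was 0.57 to 1.31 above the 90th percentile of the negative controls. In 15EN replicates 1 and 3 it was 0.55 and 0.43 under that percentile, and in replicate 2 it was 0.08 above. DBH thus was above the 90th percentile on all VC arrays and near it in 15EN.

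PNMT, on chromosome 17, had 6.30, 6.08 and 6.83 in 15EN, against 5.45, 5.82 and 5.69 in VC. The 3 15EN values were all above the 3 VC values, with replicate 3 the highest. The log2 difference was 0.75 ± 0.25 (95% interval 0.20 to 1.30; adjusted p = 0.0544), just outside the threshold, and all 6 values were dim. With the replicate number as a block, adjusted p was 0.0484, and without 15EN replicate 2 it was 0.0471 (log2 difference 0.91). Without any one of the other arrays it was 0.0823 to 0.182. Of the 9 members 5 had groups that did not overlap (DDC, DBH, PNMT, SLC6A3 and MAOB), against 36.3% of all genes.

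The members for storage and reuptake, SLC18A1, SLC18A2 and SLC6A3, were dim on every array. SLC18A2, the vesicular carrier of neurons, had 5.79, 6.16 and 6.43 in 15EN, against 6.20, 6.07 and 6.17 in VC. The 15EN range enclosed all 3 VC values and the log2 difference was -0.02 ± 0.23 (95% interval -0.52 to 0.48; adjusted p = 0.969). SLC18A1, the carrier typical of endocrine cells, had 5.29, 5.29 and 6.59 in 15EN, against 5.67, 6.01 and 6.19 in VC. Here 15EN replicate 3 was the highest array of all and the other 2 of its group were the lowest, which gave a log2 difference of -0.24 ± 0.34 (95% interval -1.004 to 0.53; adjusted p = 0.708). Without 15EN replicate 3 the difference was -0.67 and passed (adjusted p = 0.0402), so the call on SLC18A1 turned on that array. SLC6A3, the dopamine transporter, had 5.10, 5.11 and 5.05 in 15EN, against 5.23, 5.66 and 5.68 in VC. The difference was -0.44 ± 0.21 (95% interval -0.91 to 0.04; adjusted p = 0.192) at percentiles 52.6 to 58.8 of the negative controls in 15EN and 53.4 to 65.7 in VC, so SLC6A3 lay close to their median in both groups.

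**Figure D2:**
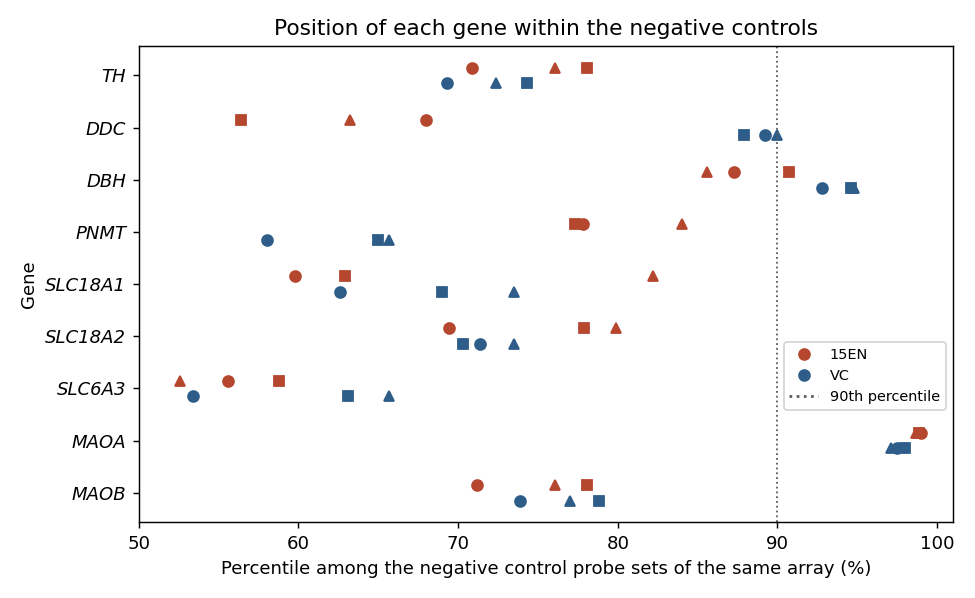
Percentile of each gene's signal among the 612 negative control probe sets of the same array (15EN in red above, VC in blue below; circles, squares and triangles for replicates 1, 2 and 3; dotted line at the 90th percentile). DDC sits at percentiles 56.4 to 68.0 in 15EN and 87.9 to 90 in VC, and MAOA at 97.1 or higher on every array.

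Breakdown is represented by the neighbouring oxidase genes. MAOA, which prefers noradrenaline and serotonin, lies on the X chromosome (43655006 to 43746817). It had 10.75, 10.51 and 10.40 in 15EN, against 10.42, 10.19 and 9.92 in VC. The highest VC value lay just above the lowest 15EN value, and each 15EN array was above the VC array of the same passage, by 0.33, 0.32 and 0.49. The log2 difference was 0.38 ± 0.22 (95% interval -0.11 to 0.87; adjusted p = 0.282), and it was 2.11 to 3.25 above the 90th percentile of the negative controls on the 6 arrays. MAOB, its neighbour (43766610 to 43882450), had 5.90, 6.18 and 6.11 in 15EN, against 6.37, 6.68 and 6.43 in VC. The groups did not overlap but the difference of -0.43 ± 0.21 (95% interval -0.89 to 0.03; adjusted p = 0.187) did not pass, and MAOB was dim on every array.

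Measured as distance from each array's negative control median, the picture of the enzymes was close to that of the deposited values. The median of the negative controls was lower in 15EN than in VC, so every gene gained 0.18 in this comparison and the median gene stood at 0.19. DDC was 0.57 ± 0.33 above the control median in 15EN and 2.69 ± 0.24 above it in VC (SD, n = 3 each), a difference of -2.11 ± 0.24 (adjusted p = 0.000446). DBH was 2.35 ± 0.34 above it in 15EN and 3.76 ± 0.23 in VC, a difference of -1.41 ± 0.24 (adjusted p = 0.00274). PNMT was 1.58 ± 0.34 above it in 15EN and 0.65 ± 0.24 in VC, and its difference of 0.93 ± 0.25 passed (adjusted p = 0.0205). In this comparison 2 members were lower and 1 higher, against 6.65% and 16.8% of all genes. The PNMT call was lost when VC replicate 1 (adjusted p = 0.0887) or VC replicate 3 (0.0617) was left out. MAOA stood 5.73 ± 0.18 above the control median in 15EN and 5.17 ± 0.21 in VC, and its difference of 0.56 ± 0.22 passed without 15EN replicate 3 (0.66, adjusted p = 0.0400) but not with it (0.0935). TH, SLC18A1, SLC18A2, SLC6A3 and MAOB differed by -0.26 to 0.16 and did not pass.

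The direction of the smaller differences depended on the scale. When arrays were set to equal hybridization controls (mean 10.31 to 10.60 in 15EN and 11.22 to 11.37 in VC), every difference gained 0.87 and the median gene stood at 0.88. The split of calls over all genes was then 12150 higher and 437 lower, against 2179 and 1608 as deposited and 2969 and 1177 by distance from the negative control median. DDC (-1.42, adjusted p = 0.00117) and DBH (-0.72, adjusted p = 0.0290) were still lower under that scaling, where 2.47% of all genes were. TH (0.78), SLC18A2 (0.85), PNMT (1.62) and MAOA (1.25) passed as higher, along with 68.7% of all genes. Read against the median gene, TH was at -0.11, SLC18A2 at -0.03, PNMT at 0.74 and MAOA at 0.37, the same as before.

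**Figure D3:**
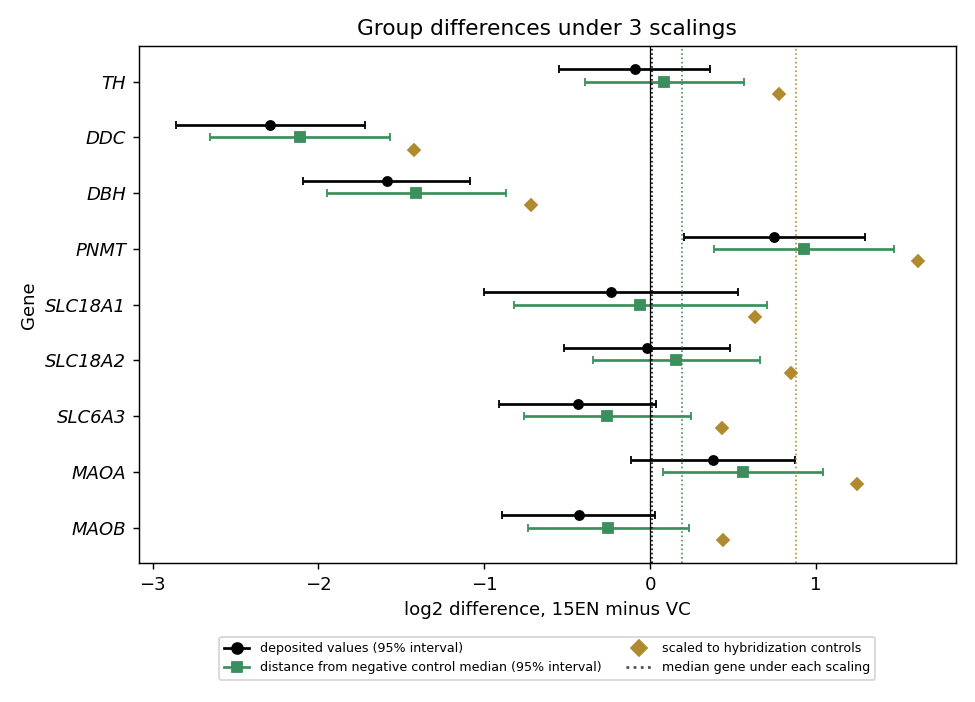
Log2 difference (15EN minus VC) of each gene under 3 scalings, with 95% intervals for the deposited values and for the distance from the negative control median, and dotted lines at the median gene under each scaling. DDC and DBH lie below 0 under all 3, while TH, SLC18A1, SLC18A2, SLC6A3 and MAOB lie on both sides of 0 depending on the scaling.

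The genes whose 6-array pattern was most like that of DDC, by the root mean square difference of centred log2 values over the 6 arrays, were PRMT2, an arginine methyltransferase (0.15), RIMBP2, a protein of the presynaptic active zone (0.16), and PARP1, a DNA damage-activated enzyme that makes poly(ADP-ribose) (0.16). For DBH they were LMBR1L (0.13), the glutathione transferase gene GSTM4 (0.14) and NCAM1, a neural cell adhesion molecule (0.14). Their log2 differences were -2.31, -2.07 and -2.12 for the first 3 and -1.42, -1.54 and -1.52 for the other 3.

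Around the members stood 6 lists of genes with 91 distinct measured genes. Of these, 12 were higher and 13 lower in 15EN, against 12.3% and 9.09% of all genes. Leaving out 15EN replicate 1 gave 7 and 9, as did leaving out VC replicate 1. Leaving out 15EN replicate 3 gave 19 and 19, and any other array 8 to 9 and 9 to 11. Counts over all genes moved too, from 2179 higher and 1608 lower to 3227 and 2240 without 15EN replicate 3. With arrays set to equal hybridization controls, 59 of the 91 were higher and 2 lower (SLC29A4 and PPP2R2B), against 68.7% and 2.47% of all genes. Among the genes called as deposited, SLC31A1 (0.04), AKR7A2 (0.23) and YWHAH (0.0021) then changed sign. Genes not called as deposited turned as well, SLC6A2 (0.19) among them. The directions below are those of the deposited values. Counts of each list stand against the same shares of all genes, 12.3% higher and 9.09% lower.

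Genes of cofactor supply (tetrahydrobiopterin for TH, ascorbate and copper for DBH, flavin for the oxidases) had 0 higher and 2 lower of 13, with a median of 0.12. Genes for pyridoxal phosphate, the cofactor of DDC, were not analysed here. GCH1, the first enzyme of tetrahydrobiopterin synthesis, had 8.58, 8.12 and 7.82 in 15EN, against 8.13, 8.10 and 7.86 in VC, and differed by 0.15 ± 0.24 (adjusted p = 0.751). The reductase gene CYB5R3 had 11.03, 11.60 and 11.69 in 15EN, against 12.52, 12.98 and 12.74 in VC, and fell by 1.31 ± 0.25 (adjusted p = 0.00438). The copper importer SLC31A1 fell by 0.83 ± 0.21 (adjusted p = 0.0196), a call lost without 15EN replicate 1 (0.0705), VC replicate 1 (0.0753) or VC replicate 2 (0.0934). Both falls concern enzymes or carriers with many other duties in the cell. Without 15EN replicate 3 the list had 3 higher genes.

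Other enzymes of amine breakdown had 1 higher and 2 lower of 10, with a median of -0.40. ALDH2, the mitochondrial dehydrogenase that clears the aldehydes the oxidases produce, had 8.86, 9.07 and 9.50 in 15EN, against 10.48, 10.50 and 10.09 in VC. The groups did not overlap and it fell by 1.22 ± 0.24 (adjusted p = 0.00553). The aldehyde reductase AKR7A2 fell by 0.64 ± 0.21 (adjusted p = 0.0488), with 0.0646 under the replicate block, and the aminoaldehyde dehydrogenase ALDH9A1 rose by 0.72 ± 0.22 (adjusted p = 0.0372). Both calls were lost without any one of 5 arrays, 15EN replicate 3 being the exception, at adjusted p 0.102 to 0.166 for AKR7A2 and 0.0549 to 0.150 for ALDH9A1. The ALDH9A1 call was also lost after quantile normalization (0.0608) and after loess removal of a brightness trend (0.0866).

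Other amine transporters had 1 higher and 1 lower of 9, with a median of -0.13. SLC29A4, the plasma membrane monoamine transporter of low affinity, had 8.41, 8.91 and 7.12 in 15EN, against 10.34, 10.06 and 10.68 in VC. It fell by 2.21 ± 0.40 (adjusted p = 0.00361), and by 1.70 without 15EN replicate 3, its lowest array. SLC3A2, the heavy chain of exchangers that carry tyrosine and L-DOPA, had 14.76, 15.30 and 14.56 in 15EN, against 11.76, 11.98 and 12.30 in VC, a rise of 2.86 ± 0.26 (adjusted p = 0.000183). The exchanger genes SLC7A5 and SLC7A8 of the same list, named after their values were seen, did not pass. SLC7A5 differed by -0.70 ± 0.24 (adjusted p = 0.0646). SLC7A8, dim on every array, differed by 0.50 ± 0.21 (adjusted p = 0.124). SLC6A2, the noradrenaline transporter, had 8.34, 7.95 and 7.87 in 15EN, against 9.13, 8.31 and 8.74 in VC, and its difference of -0.67 ± 0.26 did not pass (adjusted p = 0.0957). Unlike SLC6A3, it was above the 90th percentile of the negative controls on all 6 arrays.

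Transcription factors with a known part in catecholamine gene expression moved in both directions, 5 higher and 3 lower of 29, with a median of 0.07. Those lower were ISL1 (-1.19 ± 0.26, adjusted p = 0.00816), PHOX2A, an activator of DBH (-0.89 ± 0.22, adjusted p = 0.0169), and HAND1 (-1.20 ± 0.31, adjusted p = 0.0193). PHOX2A had 10.74, 10.97 and 10.66 in 15EN, against 11.97, 11.53 and 11.53 in VC, with no overlap, and it missed the threshold without 15EN replicate 1 (0.0552) or VC replicate 1 (0.0760). HAND1 missed it without 15EN replicate 2 (0.0727), VC replicate 1 (0.0661) or VC replicate 2 (0.0598). GATA3 (0.07 ± 0.22, adjusted p = 0.872) and HAND2 (0.09 ± 0.22, adjusted p = 0.826) differed by less than their errors. GATA2, named after its values were seen, had a difference of -0.91 ± 0.30 and just missed the threshold (adjusted p = 0.0518, limma).
The higher ones included the immediate-early factor EGR1, which had 16.35, 17.22 and 14.90 in 15EN, against 13.58, 13.45 and 13.14 in VC (2.77 ± 0.47, adjusted p = 0.00267). NR4A3, an orphan nuclear receptor, had 9.26, 9.31 and 7.68 in 15EN, against 6.76, 6.70 and 5.88 in VC (2.30 ± 0.42, adjusted p = 0.00398). In both genes 15EN replicate 3 was the array of its group nearest to VC. The deacetylase SIRT1, counted in the list though not itself a transcription factor, rose by 1.27 ± 0.22 (adjusted p = 0.00294). The remaining 2, named after their values were seen, were the glucocorticoid receptor NR3C1 (1.55 ± 0.30, adjusted p = 0.00485) and INSM1 (1.14 ± 0.34, adjusted p = 0.0379). The INSM1 call was lost on leaving out any one array except 15EN replicate 3 (0.0591 to 0.156). Without 15EN replicate 3 the list had 9 higher and 5 lower genes, and without VC replicate 1 it had 4 and 1.

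Kinases, phosphatases and binding proteins that act on TH or beside it had 4 higher and 4 lower of 17, with a median of -0.09. These counts include DNAJC6, whose product uncoats clathrin. With the replicate number as a block the counts were 3 higher and 6 lower, after quantile normalization 2 and 5, and after loess removal of a brightness trend 2 and 6. PPP2R2B, a regulatory subunit of the phosphatase PP2A, which acts on TH, had 11.21, 12.07 and 11.32 in 15EN, against 14.23, 14.19 and 14.12 in VC, a fall of 2.65 ± 0.26 (adjusted p = 0.000231). Its relative PPP2R2A moved the other way, with 13.45, 13.81 and 13.92 in 15EN, against 12.09, 12.27 and 12.37 in VC (1.49 ± 0.22, adjusted p = 0.0013). The kinase genes CAMK2G (-1.12 ± 0.24) and MAPKAPK2 (-0.87 ± 0.19) fell, and the clathrin-uncoating protein gene DNAJC6 (1.05 ± 0.27) and the PKA catalytic subunit PRKACB (0.76 ± 0.22) rose, with adjusted p of 0.00892 to 0.0311. The DNAJC6 call was lost on leaving out replicate 1 of either group or 15EN replicate 2 (0.0546 to 0.0834), and that of PRKACB on leaving out any one array except 15EN replicate 3 and VC replicate 3 (0.0816 to 0.119). The remaining 2, named after their values were seen, were YWHAH (-0.87, adjusted p = 0.0454) and PPP2CA (0.67, adjusted p = 0.0416), lost on leaving out any one array except 15EN replicate 3 for YWHAH (0.0895 to 0.171) and except 15EN replicate 2 for PPP2CA (0.0502 to 0.132), which also missed it under the replicate block (0.0504). After quantile normalization and loess, PRKACB (0.0537 and 0.0636) and PPP2CA (0.0652 and 0.0816) did not pass. Higher genes numbered 1 when 15EN replicate 1 was left out and 1 when VC replicate 1 was, and 2 when replicate 2 of either group was.

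Genes of other transmitter phenotypes had 1 higher and 1 lower of 13, with a median of 0.10, and 10 of the 13 were dim on every array. The histamine methyltransferase HNMT rose by 1.49 ± 0.26 (adjusted p = 0.00297), and GAD1, which makes GABA, fell by 1.18 ± 0.25 (adjusted p = 0.00837). Without 15EN replicate 3 the counts were 2 and 2.

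**Figure D4:**
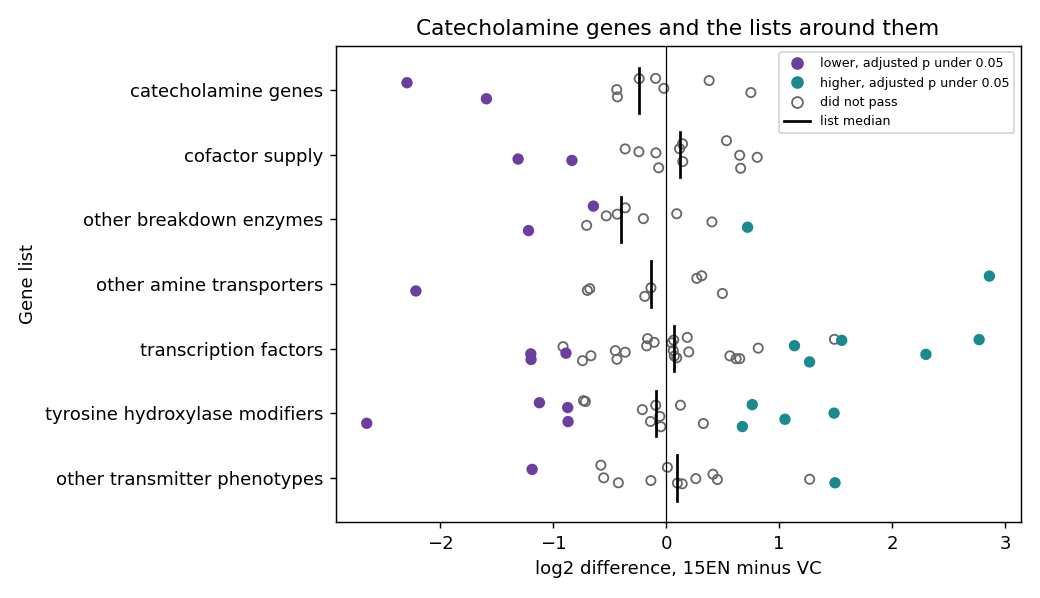
Log2 difference (15EN minus VC) of each measured gene of the catecholamine genes and of 6 lists around them, with filled points for genes past adjusted p 0.05 (purple lower, teal higher), open points for those that did not pass and black bars for list medians. The 9 catecholamine genes have 2 filled points, both lower, while transcription factors and tyrosine hydroxylase modifiers have filled points on both sides. The list of transcription factors also holds the deacetylase gene SIRT1, and that of modifiers the clathrin-uncoating protein gene DNAJC6.

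Markers of the cell's lineage were lower in part. Each count below stands against 9.09% of all genes lower and 12.3% higher. Of the 16 measured sympathetic neuroblastoma markers, 8 were lower (DBH, PHOX2A, ISL1, CHGA, STMN2, ELAVL4, NEFM and GAP43) and 1 was higher (INSM1), with a median of -0.90. The other 7 did not pass. GATA3 (0.07), HAND2 (0.09), TH (-0.09) and MYCN (0.01) lay near 0. GATA2 (-0.91, adjusted p = 0.0518 by limma), DCX (-0.52) and CHGB (-0.46) had negative differences. The mean level over the list was 9.84 to 10.01 in 15EN and 10.64 to 10.84 in VC, so the groups did not overlap. Taken singly, 36.3% of all genes had groups that did not overlap. DBH and TH belong to the sympathetic neuroblastoma list. Without them, 7 of 14 were lower and 1 higher, at list means of 10.27 to 10.50 in 15EN and 11.08 to 11.34 in VC. Under the hybridization control scaling 3 of the 16 were lower and 5 higher, with a median of -0.03, against 2.47% and 68.7% of all genes. Leaving out 15EN replicate 1 gave 4 lower, VC replicate 1 gave 5, and any other single array gave 6 to 9. Markers of substrate-adherent neuroblastoma cells had 2 higher and 4 lower of 13 (list means 9.30 to 10.08 in 15EN and 9.70 to 10.09 in VC), and fibroblast markers 0 higher and 2 lower of 9 (8.60 to 9.19 in 15EN and 9.05 to 9.43 in VC). The fibroblast count was 0 without 15EN replicate 1, VC replicate 2 or VC replicate 3. Schwann cell and glial markers had 0 and 0 of 8 by limma (4.97 to 5.15 in 15EN and 5.06 to 5.16 in VC), also without any single array. Markers of adrenal chromaffin cells, among them PNMT and SLC18A1, had 1 higher (INSM1) and 1 lower (CHGA) of 9, at means of 6.04 to 6.49 in 15EN and 6.18 to 6.31 in VC, and 6 of the 9 were dim on every array. Leaving out 15EN replicate 1, VC replicate 1 or VC replicate 3 gave 0 and 0 by limma for that list. The part of these shifts in the differences of DDC and DBH was not tested, and fewer cells of a type and less RNA per cell cannot be told apart in such samples.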

How the data were processed

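Expression was measured in 6 SH-SY5Y samples. The authors deposited log2 signals, 1 per probe set and array, made with the Transcriptome Analysis Console per the submitters' processing notes. The log2 scale was judged from the values, and the sources used here give no version, summarization, normalization or build. Of 24351 probe sets 2903 are controls. The platform annotation gives 17709 of the others 1 symbol, 0 several, and leaves 3739 unnamed here. All 17709 Entrez identifiers matched RefSeq (GRCh38.p14). The probe set with the highest mean was kept per gene (22 set aside).

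The comparison of 15EN with VC used limma 3.58.1 (lmFit, eBayes, group as the only term, two-sided, Benjamini-Hochberg over 17687 genes; R 4.3.3), and again after subtracting each array's negative control median. Errors beside differences are standard errors of that fit. The procedure was tested on simulated data. The number of arrays limits the precision.

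Named genes were the members, up to 3 called genes of smallest p per list and direction, a few fixed genes, and the 3 most similar profiles per called member. Members and lists were chosen with earlier results of these data known. Alternatives were other scalings, filters on dim genes, array weights, other variance priors, probe set summaries and each array or passage left out. Same-numbered arrays share a passage by their titles, and a second fit therefore took the number as a block. Their deviations from the group means correlated at 0.229, 0.162 and 0.133, against -0.138 to -0.0165 for other pairs. Such deviations sum to 0 within a group of 3 arrays, so this contrast is partly built in. By itself it cannot show that the numbers pair the samples.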

Additional observations from a re-analysis of the deposited data

How the results depend on the processing

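DDC and DBH were lower past the threshold under all 23 alternatives run, at log2 differences of -2.44 to -1.42 and -1.75 to -0.72 and adjusted p of at most 0.0322 and 0.0326. Not all of these could differ. Each member has 1 probe set, so averaging probe sets left its values as they were. The filter on genes dim on every array kept DDC only through VC replicate 3. It kept DBH through the VC arrays and 15EN replicate 2, so passing that filter is no support for either fall. The count of higher members, 0 as deposited, was 1 (PNMT) after quantile normalization, centring on the negative control median or 90th percentile, loess removal of a brightness trend, without the dimmest tercile and with the replicate block, and 4 after scaling to the hybridization controls. The replicate block changed no other member's call. Of all 17687 genes, 2036 were higher after quantile normalization, 2969 on the control median and 3449 on the 90th percentile. After loess 1907 were higher, and with the replicate block 2415. Without the dimmest tercile, where fewer genes were fitted, 2301 were higher. Beside these counts, 1 of 9 members is not read as a result about the members. Leaving out arrays or passages gave 0 to 1 higher and 2 to 3 lower members. By distance from the control median it gave 0 to 2 higher and 2 lower members. The higher count by distance was 0 with no centring. It was also 0 without genes dim on every array, a filter that takes out PNMT itself before the fit. Signs turned after scaling to the hybridization controls for TH (0.78), SLC18A1 (0.63), SLC18A2 (0.85), SLC6A3 (0.43) and MAOB (0.44), with a constant added to every gene. They turned with centring on the control median for TH (0.086) and SLC18A2 (0.16), and on the 90th percentile for TH (0.22), SLC18A1 (0.070) and SLC18A2 (0.29). SLC18A2 turned after quantile normalization (0.032) and loess (0.0077). With arrays or passages left out, SLC18A1 ran from -0.67 to 0.0043 and SLC18A2 from -0.17 to 0.18. As distance from the control median, TH was -0.093 and SLC18A2 -0.020 with no centring, SLC18A1 was 0.070 on the 90th percentile, TH ran from -0.011 to 0.19 and SLC18A1 from -0.47 to 0.17 with arrays left out. Over all genes, calls were 12150 higher and 437 lower after scaling to the hybridization controls, 3449 and 864 on the 90th percentile, 789 and 637 without moderation, and 526 to 3227 higher and 495 to 2240 lower with arrays or passages left out. The lists around the members had 59 higher and 2 lower after scaling to the hybridization controls, 19 and 21 with array weights, and 7 to 19 and 9 to 19 with an array left out. Apart from the added constant and the smaller fits, the cause was not tested. Signals near the negative controls limit what can be said of the 6 members dim on all arrays.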
